A study of Mus musculus with 14 samples.

Results

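The 10 genes described here are a set of mast cell and basophil genes, and they were taken by name. They are Mitf, Fcer1a, Ms4a2, Cpa3, Hdc, Il1rl1, Cma1, Mcpt4, Mcpt8 and Gzmb, 10 of 21631 protein-coding mouse genes. For each gene every binding peak whose midpoint lay inside the gene or within 50 kb of it was collected, and this stretch is called its locus. The 10 loci held 365 different peaks, 0.13% of the 279955 peaks in the data. Cma1, Mcpt4, Mcpt8 and Gzmb are neighbours on chromosome 14, and all 59 peaks of the Mcpt8 locus also belonged to the Mcpt4 locus, whereas the remaining pairs of neighbours shared 0 peaks.

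The study mapped the binding of 13 transcription factors by chromatin immunoprecipitation and sequencing (ChIP-seq) in 1 mouse cell line, Hoxb8-FL, which the submitters label LMPP-like, that is, like a lymphoid-primed multipotent progenitor. Such lines are progenitors held in an undifferentiated state by an oestrogen-controlled Hoxb8 gene, and these cells were grown with estradiol and FLT3 ligand and were otherwise untreated. The groups are the antibodies, with 1 library each: the ETS proteins Spi1, Fli1 and Erg, the C/EBP proteins Cebpb and Cebpa, Tal1, Lyl1 and their partner Lmo2, Gfi1b and Gfi1, and Runx1, Meis1 and Gata2. An IgG control library was also made, and it enters no count here. Chromatin was fixed for 10 min in 0.4% or 1% formaldehyde, and the labels do not tie either strength to a factor. Because each factor has 1 library, no difference below was tested, and the intervals given cover counting error only. RNA was not measured, so neither the expression of these genes nor the labelled cell type could be checked, and a peak shows binding, not activity.

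Mast cells and basophils are the cells that carry the high-affinity receptor for immunoglobulin E on their surface and release histamine and proteases from granules when it is cross-linked. Both arise from haematopoietic progenitors, and Gata2, Mitf and C/EBP proteins are known regulators of their development. Mitf is the transcription factor most closely tied to the mast cell side. Fcer1a and Ms4a2 are the alpha and beta chains of the immunoglobulin E receptor, Il1rl1 is the receptor for interleukin-33, and Hdc makes histamine from histidine. Cpa3 is the carboxypeptidase of mast cell granules, Cma1 and Mcpt4 are chymases of connective tissue mast cells, Mcpt8 is a protease used as a marker of mouse basophils, and Gzmb is granzyme B, best known from cytotoxic lymphocytes. Of the 13 factors, Spi1 (PU.1), Erg and Fli1 are ETS proteins, Tal1 and Lyl1 bind E-boxes in complexes that Lmo2 bridges to GATA factors, Gfi1 and Gfi1b are repressors of one family, and Meis1 is a homeodomain protein.

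The promoters of 6 of the genes show the range from dense binding to none, and their sequences are given here for that reason. Each is the 250 bases before a RefSeq start site (GRCm38.p6, the build of the peak files), written 5′ to 3′ on the gene's strand. Capitals mark exact matches on either strand to short motifs: AGATAA for GATA factors, CAGNTG for E-box proteins, AGGAAG for ETS proteins, TGTGGT for Runx proteins, TTNNGNAA for C/EBP proteins, TGACAG for Meis proteins and AATCACNGC for Gfi1 and Gfi1b. In Mcpt8 a Runx match and an E-box match adjoin and form 1 run of capitals.
Mcpt8 (chr14:56085198-56085447, minus strand, peaks of 11 factors): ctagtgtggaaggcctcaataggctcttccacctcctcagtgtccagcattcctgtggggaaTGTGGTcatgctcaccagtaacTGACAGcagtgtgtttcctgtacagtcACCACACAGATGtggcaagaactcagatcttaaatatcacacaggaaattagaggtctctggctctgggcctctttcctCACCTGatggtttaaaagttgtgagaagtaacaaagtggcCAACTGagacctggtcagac
Cpa3 (chr3:20242182-20242431, minus strand, peaks of Tal1 and Lmo2): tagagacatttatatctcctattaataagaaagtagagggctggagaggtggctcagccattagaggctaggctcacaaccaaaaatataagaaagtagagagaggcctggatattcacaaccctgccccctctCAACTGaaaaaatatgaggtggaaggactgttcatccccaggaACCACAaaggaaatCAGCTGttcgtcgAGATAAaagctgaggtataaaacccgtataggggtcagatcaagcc
Hdc (chr2:126618679-126618928, minus strand, peak of Spi1): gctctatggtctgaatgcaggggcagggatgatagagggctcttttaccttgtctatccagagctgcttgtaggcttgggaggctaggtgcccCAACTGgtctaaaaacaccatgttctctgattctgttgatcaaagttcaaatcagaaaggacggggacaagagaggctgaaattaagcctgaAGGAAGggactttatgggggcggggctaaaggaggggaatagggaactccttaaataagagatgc
Mitf (chr6:97991533-97991782, plus strand, most downstream start, peak of Meis1): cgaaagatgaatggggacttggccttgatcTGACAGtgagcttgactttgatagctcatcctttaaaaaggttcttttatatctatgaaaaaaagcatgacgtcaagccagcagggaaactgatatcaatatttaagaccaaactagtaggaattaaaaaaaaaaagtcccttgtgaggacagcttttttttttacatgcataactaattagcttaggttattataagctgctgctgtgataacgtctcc
Ms4a2 (chr19:11623720-11623969, minus strand, no peak): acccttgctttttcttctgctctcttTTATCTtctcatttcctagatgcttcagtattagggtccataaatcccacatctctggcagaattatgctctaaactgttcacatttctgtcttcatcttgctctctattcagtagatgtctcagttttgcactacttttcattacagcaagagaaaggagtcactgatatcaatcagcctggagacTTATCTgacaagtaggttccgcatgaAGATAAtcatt
Fcer1a (chr1:173227230-173227479, minus strand, no peak): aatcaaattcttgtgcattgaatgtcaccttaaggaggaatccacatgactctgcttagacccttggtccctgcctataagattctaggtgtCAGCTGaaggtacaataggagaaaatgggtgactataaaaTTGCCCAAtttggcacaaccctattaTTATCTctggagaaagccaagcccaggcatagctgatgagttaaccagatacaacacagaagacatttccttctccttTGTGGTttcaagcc

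Promoters were compared as 300-base windows, from 250 bases before to 50 bases after each start. All 10 genes had at least 1 promoter in the RefSeq table, 13 in all, because Mitf has 3 listed starts and Il1rl1 has 2. Of these 13 promoters, 5 overlapped a peak of any factor (Mcpt8, Cpa3, Hdc and 2 of Mitf), against 32.3% of 32619 promoters in the table. The Mcpt8 promoter overlapped peaks of 11 factors, and 0.365% of all promoters overlapped 10 or more.

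The Mcpt8 promoter held 3 E-box matches, 20, 60 and 133 bases upstream of the start, and peaks of Tal1, Lyl1 and Lmo2 covered each of them. Its 2 Runx matches, 139 and 188 bases upstream, lay inside the Runx1 peak, and its Meis match, 166 bases upstream, lay inside the Meis1 peak. Peaks are 400 bp wide and together covered all 300 bases of this window, 298 at Cpa3 and 264 at Hdc. Most matches in these 3 promoters would therefore lie inside a peak, whichever motif they belong to. No exact match to the GATA, ETS, C/EBP or Gfi letters was present in the Mcpt8 window. The lists of Spi1, Erg, Fli1, Cebpa, Cebpb and Gfi1 each had a peak over it. Other forms of these motifs were not counted, so sites for these factors may be present. Peaks of Meis1 overlapped 1.18% of all promoters, those of Lyl1 1.55% and those of Tal1 1.97%, so all 3 were uncommon at promoters. Over the whole table, 51.4% of promoters held an E-box match, 16.6% a Runx match and 18.9% a Meis match.

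The Cpa3 promoter had an E-box match 59 bases and a GATA match 46 bases upstream of the start, and the Tal1 and Lmo2 peaks covered both. From the TG that ends the E-box to the GATA letters there are 8 bases, and an E-box a short way before a GATA site is an arrangement known from complexes of Tal1, Lmo2 and GATA factors in red cell genes. The pairing with this spacing (CTG before, GATA after, either strand) was looked for after the Cpa3 sequence had been read. It was found in 747 of 32619 promoters (2.29%) and in 26 of the 552 promoters that overlapped both a Tal1 and a Lmo2 peak (4.71%), and Cpa3 was the 1 gene of the 10 that held it. The Cpa3 locus had no Gata2 peak, and 6 of the 552 promoters overlapped one.

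In the Hdc promoter the ETS match 65 bases upstream lay inside the Spi1 peak. Over all promoters, ETS matches were found in 47.7% of those with a Spi1 peak and 32.4% of those without one, Meis matches in 37.5% and 18.7% for Meis1, and E-box matches in 63.1% and 51.2% for Tal1 and in 61.9% and 51.2% for Lyl1. Gfi matches were found in 4.39% and 0.79% for Gfi1 and in 4.91% and 0.813% for Gfi1b. ETS matches were found in 43.7% and 34.4% for Erg and in 41.1% and 34.1% for Fli1. C/EBP matches were found in 44.6% and 40.3% for Cebpa and in 44.8% and 40.2% for Cebpb. The order was the opposite for E-box matches and Lmo2 (45.4% and 52.2%), GATA matches and Gata2 (7.06% and 11.3%) and Runx matches and Runx1 (16.2% and 16.7%). At the third Mitf start the single Meis match, 220 bases upstream, lay outside the Meis1 peak. Ms4a2 had 3 GATA matches, 11, 37 and 224 bases upstream, and Fcer1a had 1, 92 bases upstream, in promoters that no factor's peak touched. A GATA match was present in 11.2% of all promoters, an ETS match in 35.2%, a C/EBP match in 40.8% and a Gfi match in 0.926%. A match is a run of letters only and does not show a bound site, and a missing match does not show that a site is absent.

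Across the 10 loci a peak was present in 95 of 130 combinations of factor and gene (73.1%, exact 95% interval 64.6 to 80.5), and in 57.6% of combinations over all protein-coding genes. The interval treats the combinations as independent, which they are not, since Mcpt4 and Mcpt8 share peaks and factors share sites. A typical member locus had peaks of 12.5 factors (median), and a typical protein-coding locus 9. Loci grow with gene length, so the 9 genes other than Mitf (2.57 to 60.6 kb) were set beside the 14639 protein-coding genes of that length range: 82 of 117 combinations (70.1%) against 60.1%. The loci of Mitf, Hdc, Il1rl1, Mcpt4 and Mcpt8 had peaks of all 13 factors, that is 5 of 10, where 5.99% of protein-coding loci did. Mcpt4 and Mcpt8 are not separate in this count, since all 59 peaks of the Mcpt8 locus lie in the Mcpt4 locus. Each also adds 13 of 13 combinations to the 73.1% and the 70.1%. Counting the pair as 1 locus would lower both shares. Fcer1a was the 1 locus with no peak, as were 12.0% of protein-coding loci.

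**Figure D1:**
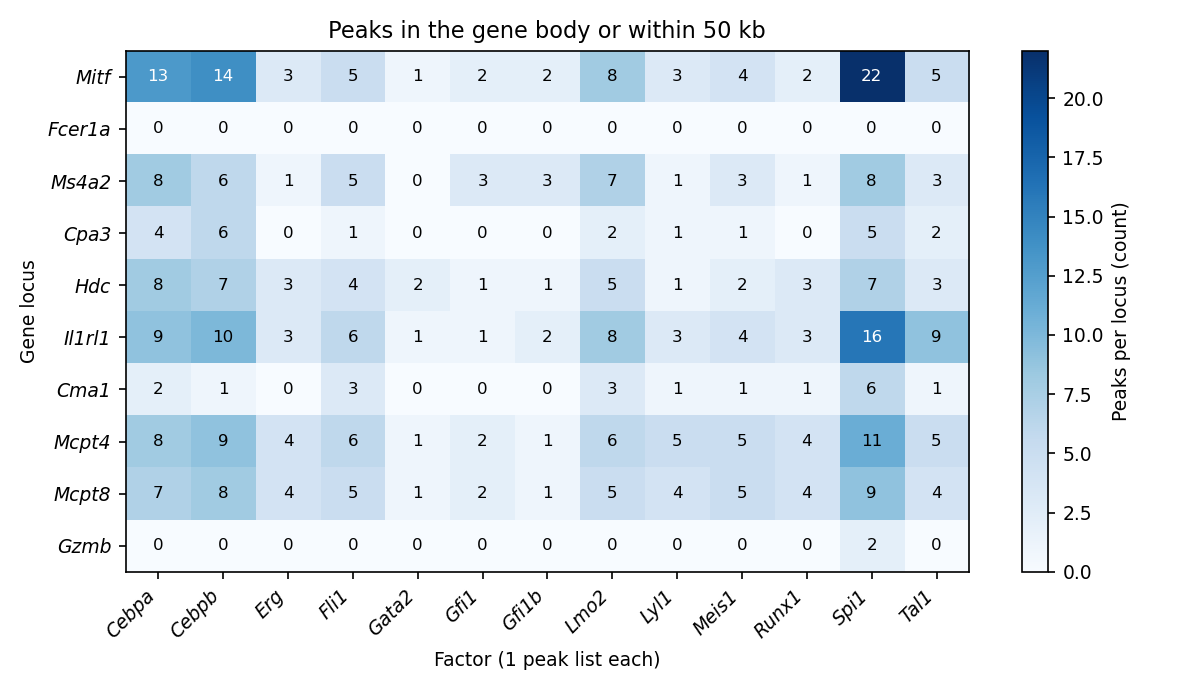
Number of peaks of each factor (columns) in the locus of each gene (rows), gene body and 50 kb either side. Spi1 had the highest count in the Mitf locus, 22 peaks, and the Fcer1a row holds 0 throughout.

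Spi1, the factor with the longest list, had a peak in 9 of the 10 loci, against 84.7% of all protein-coding loci. Cebpa and Cebpb each had a peak in 8 loci, with 74.3% and 75.5% over all loci, and Fli1 and Lmo2 also in 8, with 69.7% and 69.0%. These counts lay close to the background. Lyl1 had a peak in 8 loci where 40.5% of all loci had one, Meis1 in 8 against 50.6%, and Tal1 in 8 against 56.8%. Gata2, the factor with the shortest list, had a peak in 5 loci against 23.2%. Runx1 had a peak in 7 (56.8% over all loci), Erg in 6 (51.7%), Gfi1 in 6 (49.1%) and Gfi1b in 6 (46.5%). Mcpt4 and Mcpt8 were each counted for every factor, although all Mcpt8 peaks are also Mcpt4 peaks. A single Gata2 peak serves both. Counted once, the 365 peaks comprised 77 of Spi1, 53 of Cebpb, 52 of Cebpa, 39 of Lmo2, 30 of Fli1, 28 of Tal1, 20 of Meis1, 15 of Lyl1, 14 each of Erg and Runx1, 9 each of Gfi1 and Gfi1b, and 5 of Gata2. The lists range from 3217 peaks for Gata2 to 76378 for Spi1, and how far that range reflects library depth was not tested.

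**Figure D2:**
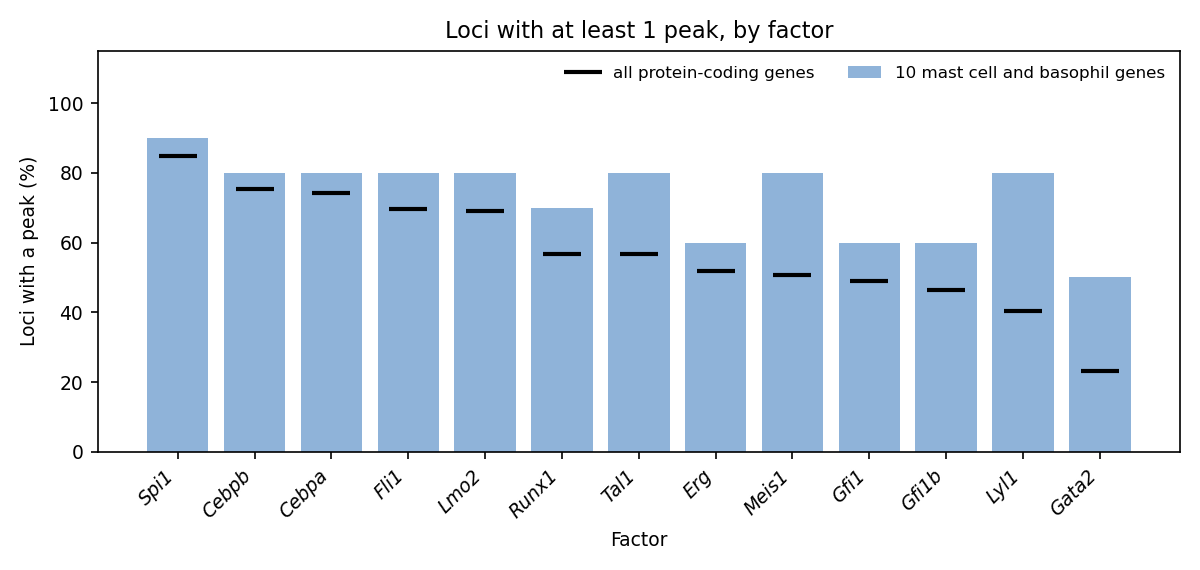
Percentage of loci with at least 1 peak of each factor: bars, the 10 mast cell and basophil genes; black marks, all protein-coding genes. The bar is above the mark for every factor, and for Lyl1 it stands at 8 of 10 loci beside a mark at 40.5%.

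Peaks of different factors that overlapped by at least 1 bp were joined into regions, which gave 126 regions in the 10 loci and 121996 in the genome. In the member loci 59 regions (46.8%, exact 95% interval 37.9 to 55.9) held a single factor, against 56.3% of all regions, and 34 (27.0%) were Spi1 alone, against 36.6%. At the other end 10 regions (7.94%, 3.87 to 14.1) held 10 or more factors, against 2.32% of all regions. Such regions lay in the loci of 6 genes, Mitf, Ms4a2, Hdc, Il1rl1, Mcpt4 and Mcpt8, that is 6 of 10, where 17.3% of protein-coding loci had one. The 4 in the Mcpt4 and Mcpt8 loci are the same regions, so these loci are not separate in this count. Regions of 10 or more factors are called dense regions below.

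The dense regions were often nearer to another gene than to the member. In 4 of the 10 the nearest protein-coding start was that of Mitf or Mcpt8, and in the other 6 it was that of Oosp2, Gabpb1, Il18rap or Ctsg. Over all 365 peaks, 209 (57.3%, exact 95% interval 52.0 to 62.4) had a member as the gene with the nearest start. Counted in this way, Mitf had 84 peaks of 13 factors, Mcpt8 28 of 13, Hdc 32 of 12, Il1rl1 19 of 6, Ms4a2 15 of 8, Cpa3 15 of 7, Cma1 12 of 7 and Mcpt4 2 of 2.

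Mitf, the regulator, had 84 peaks in its locus, the highest count of the 10, in the longest locus. Its gene spans 214 kb on chromosome 6 (97807002 to 98021360, plus strand), and 96.7% of protein-coding loci, of any length, held fewer peaks. Per 100 kb of locus it had 26.7 peaks, above 70.9% of protein-coding loci, and 5 members were denser: Mcpt4 with 65.3, Mcpt8 with 57.1, Il1rl1 with 46.7, Ms4a2 with 45.3 and Hdc with 36.1. Cma1 had 18.4 and Cpa3 17.4, near the median of 15.8 over all protein-coding loci, and Gzmb had 1.93. Of the 84 peaks, 78, of all 13 factors, lay inside the gene. Spi1 contributed 22, Cebpb 14, Cebpa 13, Lmo2 8, Fli1 and Tal1 5 each, Meis1 4, Erg and Lyl1 3 each, Runx1, Gfi1 and Gfi1b 2 each, and Gata2 1. Spi1, Cebpa and Cebpb together made up 49 of the 84 (58.3%), near their 53.3% of all peaks in the data.

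Both dense Mitf regions lay inside the gene. One, at chr6:97866392-97866989, lay 59.6 kb downstream of the first start and held 12 factors, with Gata2 the 1 absent. Further downstream, at chr6:97869762-97870268, was a region of 9 factors that included the Gata2 peak, with Cebpa, Cebpb, Erg, Fli1, Lmo2, Lyl1, Spi1 and Tal1. The other dense region, at chr6:97995745-97996240, lay 4.21 kb downstream of the third start and held 11 factors, without Gata2 and Meis1. The first start had no peak within 1 kb, the second had a Spi1 peak 0.327 kb upstream and the third had a Meis1 peak 0.147 kb downstream. A further region, of Cebpa, Cebpb, Lmo2 and Spi1, lay 22.2 kb downstream of the first start.

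The 3 receptor genes differed. The locus of Fcer1a (chr1:173221269-173227232, minus strand) had no peak of any factor, and the nearest peak, of Spi1, was 118 kb upstream. Widening the locus to 100 kb either side still gave 0 factors. Ms4a2 (chr19:11615517-11623790, minus strand), the beta chain, had no peak inside the gene and none within 10 kb of its start, but 49 peaks of 12 factors in its locus, every factor except Gata2. The nearest peak, of Fli1, lay 10.3 kb downstream of the start, in a region of 6 factors at chr19:11613092-11613570 with Cebpa, Cebpb, Lmo2, Spi1 and Tal1.

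The densest Ms4a2 region, of 12 factors, was at chr19:11659073-11659597, 35.6 kb upstream of Ms4a2 but inside Oosp2, 1.23 kb from that gene's start. Between them, regions of 4, 6 and 5 factors lay 12.1, 13.2 and 17.2 kb upstream, nearest to the start of the neighbouring Ms4a3. The last of these was 0.061 kb upstream of the Ms4a3 start. A region of Cebpa, Cebpb, Gfi1, Gfi1b and Spi1 lay 34.4 kb downstream of Ms4a2, inside Ms4a6d. Gfi1 and Gfi1b each had 3 peaks in this locus, the most of any member, as against 2 each at Mitf.

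Il1rl1 (chr1:40404864-40465418, plus strand) had 75 peaks of all 13 factors in its locus, but 13 peaks of 5 factors inside the gene. Those 5 were together in 1 region of Cebpa, Cebpb, Lmo2, Spi1 and Tal1, at chr1:40409848-40410304, 19.5 kb upstream of the first listed start and within the annotated gene. A Spi1 peak lay 0.766 kb downstream of that start, and the second start had no peak within 1 kb. Spi1 contributed 16 peaks, Cebpb 10, Cebpa and Tal1 9 each, Lmo2 8 and Fli1 6.

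The dense regions of the Il1rl1 locus lay beyond the neighbouring Il18r1. One held 10 factors at chr1:40504503-40505004, 65.1 kb downstream of the nearer Il1rl1 start and 10.6 kb upstream of Il18rap. The other, of 11 factors, at chr1:40515043-40515629, lay 0.027 kb upstream of the Il18rap start. The one Gata2 peak of the locus was inside Il18r1, 36.2 kb downstream of Il1rl1, in a region of 7 factors with Cebpa, Cebpb, Fli1, Gfi1, Gfi1b and Spi1. Il18r1 and Il18rap encode the 2 chains of the interleukin-18 receptor, and the 7-factor region 73.6 kb upstream was inside Il1rl2. Further regions held 4 factors 62.1 kb downstream, 6 factors 62.6 kb downstream and 4 factors 69.7 kb upstream.

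Hdc, the histamine-making enzyme (chr2:126593659-126624025, minus strand), had 47 peaks of all 13 factors, of which 15 peaks of 10 factors were inside the gene. Cebpa contributed 8 peaks, Cebpb and Spi1 7 each, Lmo2 5 and Fli1 4. A Spi1 peak was centred 0.014 kb and a Cebpa peak 0.754 kb upstream of the start. Within the gene, 16.4 kb downstream of the start, a region at chr2:126601938-126602614 held 8 factors: Cebpa, Cebpb, Fli1, Lmo2, Meis1, Runx1, Spi1 and Tal1. Gfi1 and Gfi1b peaks lay 19.3 kb downstream, apart from it.

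Hdc was the member with the most Gata2 peaks, 2. One lay 17.4 kb upstream in a region of 7 factors at chr2:126635909-126636425, with Cebpa, Cebpb, Fli1, Lmo2, Spi1 and Tal1. The other lay 40.7 kb upstream and overlapped no other factor. Both were inside Gabpb1, the neighbouring gene that encodes an ETS partner subunit, although the nearest start to the 7-factor region was that of Hdc. Regions of 5 factors 28.0 kb upstream and 4 factors 31.0 kb downstream completed those with 4 or more. The dense region of the locus, 10 factors at chr2:126673213-126673717, lay 54.8 kb upstream of Hdc and 1.89 kb from the Gabpb1 start.

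**Figure D3:**
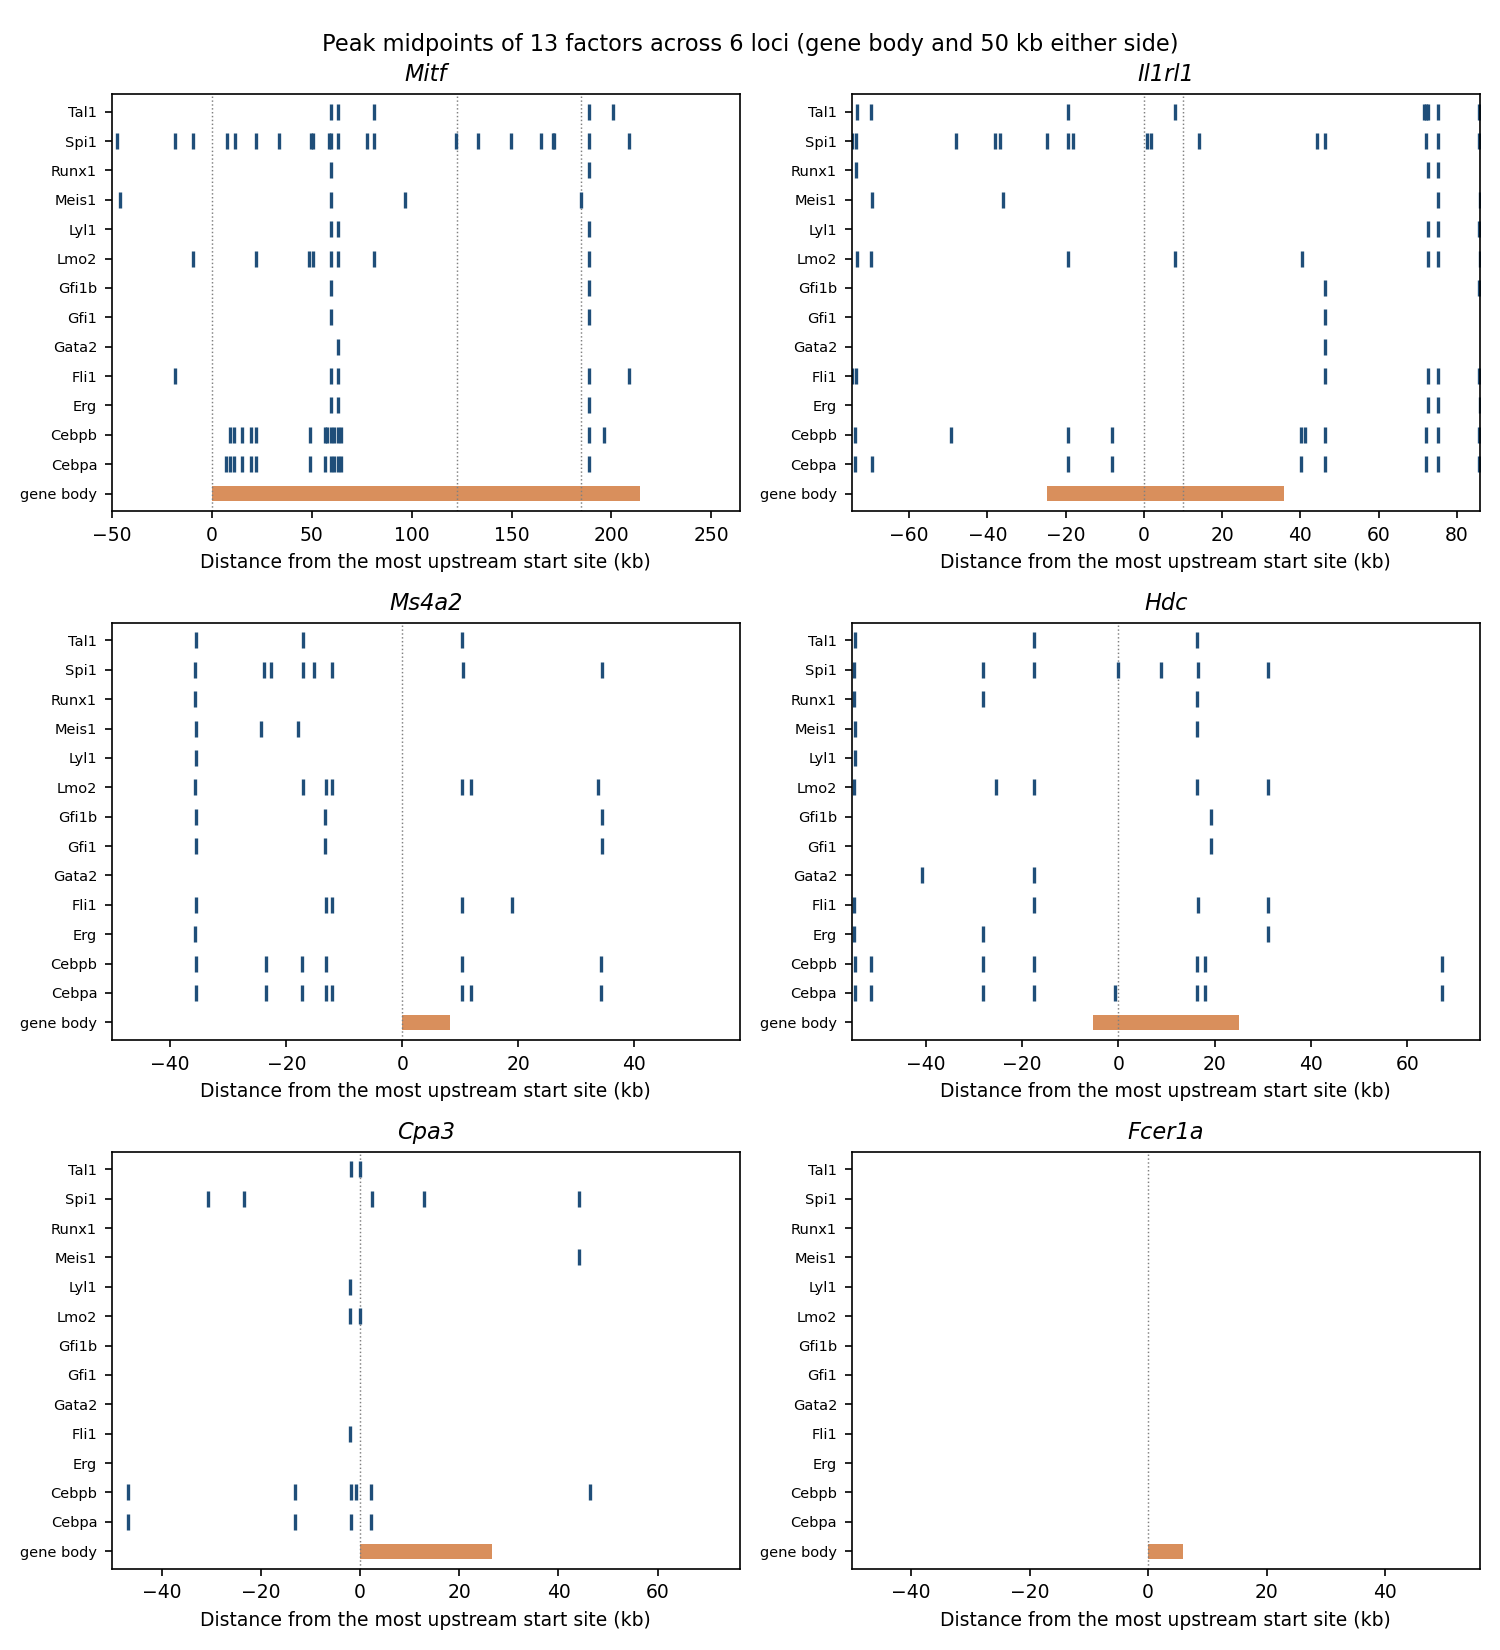
Midpoints of all peaks (blue ticks, 1 line per factor) in 6 loci, by distance in kb from the most upstream listed start site, with upstream negative; orange bars are the annotated genes and dotted lines the listed starts. Columns of ticks mark the dense regions, which at Ms4a2, Hdc and Il1rl1 stand away from the gene, and the Fcer1a panel is empty.

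Cpa3, the granule carboxypeptidase (chr3:20215616-20242209, minus strand), had 22 peaks of 8 factors. Erg, Gata2, Gfi1, Gfi1b and Runx1 had none. Cebpb had 6 peaks, Spi1 5, Cebpa 4, Lmo2 and Tal1 2 each, and Fli1, Lyl1 and Meis1 1 each. Several peaks were close to the start: Lmo2 was centred 0.032 kb, Tal1 0.048 kb and Cebpb 0.833 kb upstream. A region of 6 factors at chr3:20243725-20244355, 1.86 kb upstream, held Cebpa, Cebpb, Fli1, Lmo2, Lyl1 and Tal1. Of the 5 Spi1 peaks none fell in that region, and the nearest to the start was 2.31 kb downstream, inside the gene. Cpa3 exceeded 41.5% of protein-coding loci in its number of factors and 50.4% in its number of peaks, so that its total was ordinary.

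The remaining 4 genes stand in the chymase and granzyme cluster on chromosome 14. The stretch from 50 kb below Cma1 to 50 kb above Gzmb (55891451 to 56312334) is touched by 17 protein-coding genes, of which Khnyn, which crosses its edge, and Sdr39u1 do not encode granule proteases. These 421 kb held 89 peaks of all 13 factors in 28 regions. Binding was concentrated: 4 dense regions lay within 20.7 kb at the Mcpt8 and Ctsg genes, 4.93% of the interval, and that stretch held 50 of the 89 peaks (56.2%). In the genome 0.453% of protein-coding loci held 4 or more dense regions, as the Mcpt4 and Mcpt8 loci did. These are the same 4 regions in both loci.

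**Figure D4:**
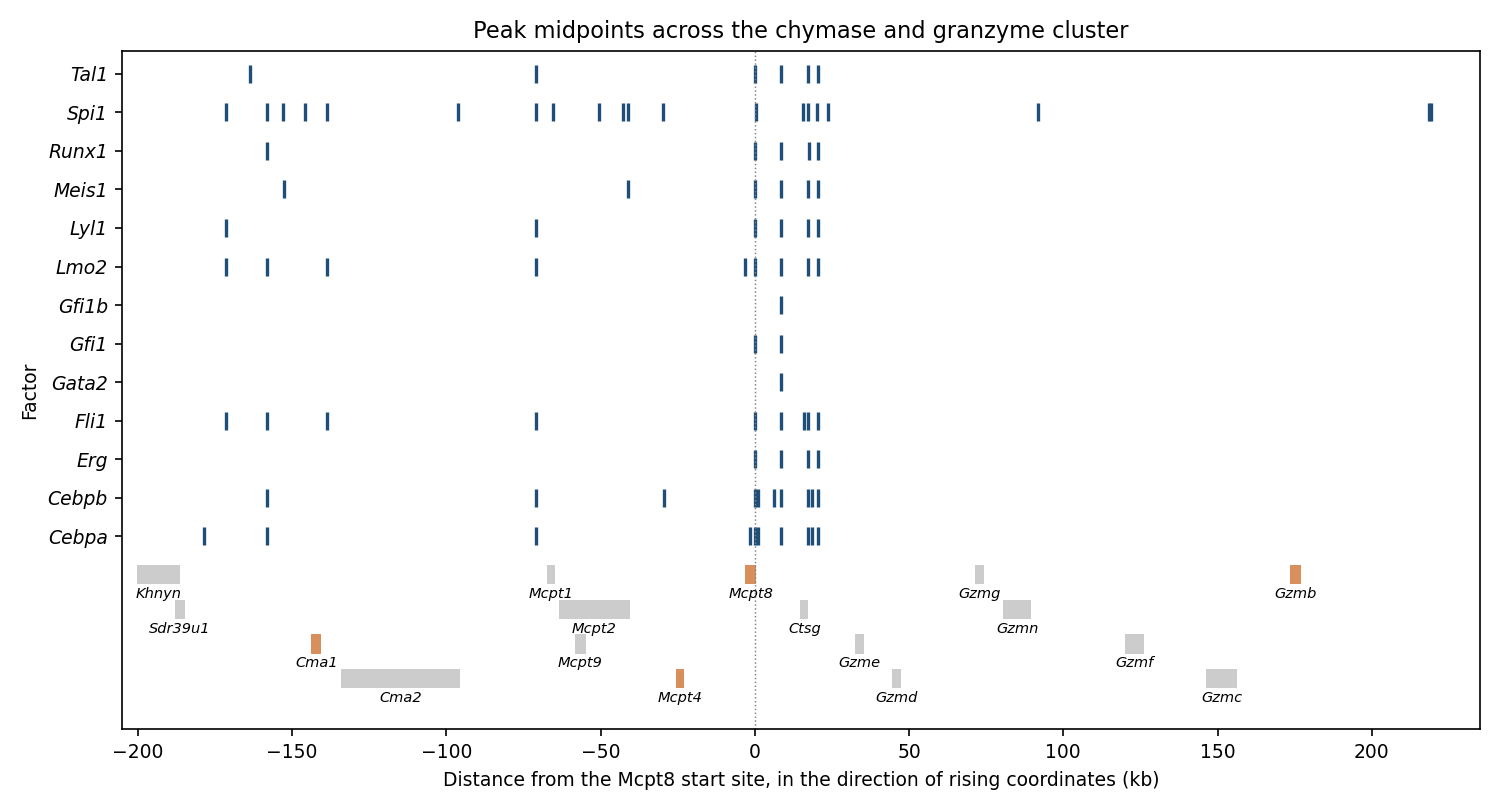
Midpoints of peaks (blue ticks, 1 line per factor) across the chymase and granzyme cluster, by distance in kb from the Mcpt8 start; bars below are genes, with the 4 members in orange. The 4 columns of ticks from 0 to about 20 kb are the dense regions at Mcpt8 and Ctsg, and the stretch around Gzmf, Gzmc and Gzmb holds no tick.

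Mcpt8 (chr14:56082163-56085499, minus strand) had 59 peaks of all 13 factors in its locus, and 13 peaks of 11 factors inside its 3.34 kb. Spi1 contributed 9 peaks, Cebpb 8, Cebpa 7, Fli1, Lmo2 and Meis1 5 each, Erg, Lyl1, Runx1 and Tal1 4 each, Gfi1 2, and Gata2 and Gfi1b 1 each. The dense region at its start, chr14:56085127-56085623, held 11 factors, without Gata2 and Gfi1b, and it covers the promoter printed above. It was the 1 member start with more than 3 factors within 1 kb, and Cpa3 followed with 3.

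A second dense region lay 8.37 kb upstream of Mcpt8, at chr14:56093333-56093806, and held 12 factors. Spi1 was the 1 factor absent and Gata2 was present. Of 573 regions in the genome with 12 factors, 3 lacked Spi1 and 515 lacked Gata2. The remaining 2 dense regions, of 10 factors each, lay 0.021 kb downstream of the start of Ctsg and 2.88 kb upstream of it, that is 17.4 and 20.3 kb upstream of Mcpt8. Ctsg encodes cathepsin G, a protease of neutrophil and mast cell granules. Both lacked Gata2, Gfi1 and Gfi1b.

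Mcpt4 (chr14:56059744-56062310, minus strand) had 67 peaks of 13 factors in its locus but none inside the gene. Within 5 kb of the gene there were 2, and the nearest to its start was a Cebpb peak 6.69 kb downstream. Besides the regions it shared with Mcpt8, its locus held a region of 7 factors at chr14:56013912-56014338, 3.84 kb upstream of Mcpt1. Cma1 (chr14:55941451-55944675, minus strand) had 19 peaks of 9 factors and none inside the gene. Its nearest peaks, of Spi1, Fli1 and Lmo2, lay 1.85 to 1.86 kb upstream, and its richest region held 6 factors 17.6 kb downstream: Cebpa, Cebpb, Fli1, Lmo2, Runx1 and Spi1. A region of 4 factors lay 31.0 kb downstream. Gzmb (chr14:56258836-56262334, minus strand) had 2 peaks, both of Spi1, 41.3 and 42.0 kb upstream. It lay in the longest stretch of the cluster without a peak midpoint, 127 kb, together with Gzmf and Gzmc.

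Counted over the gene and 5 kb either side, Ctsg had 24 peaks of 10 factors and Mcpt8 15 of 11. Mcpt1 had 8, Mcpt2 5, Cma1 and Cma2 4 each, Mcpt4 2 and Mcpt9 1. Among the granzymes Gzmn had 1 peak, and Gzme, Gzmd, Gzmg, Gzmf, Gzmc and Gzmb had 0. The 5 kb windows of neighbours can overlap, as those of Cma1 and Cma2 do, so a peak may count for more than 1 gene. The annotated intervals of Cma2 and Mcpt2 are long and listed without a strand, and that of Mcpt2 encloses Mcpt9. By this count the basophil protease gene and Ctsg had the most peaks in this line, the mast cell chymase genes fewer and the granzyme genes 1 at most. Whether weak binding there was missed was not tested, because the deposited lists hold positions without scores.

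The factors of the 10 dense regions were set beside those of the 2831 in the genome. Cebpa, Cebpb, Erg, Fli1, Lmo2, Lyl1, Runx1 and Tal1 were in all 10, and between 84.9% (Erg) and 99.6% (Lmo2) of all dense regions held each of them, so these counts lay near the background. Spi1 and Meis1 were in 9 each, where 93.3% and 64.0% of all dense regions held them. Gfi1 and Gfi1b were in 5 each, where 84.2% and 67.0% of all dense regions held them. Gata2 was in 1, against 7.35%. With 10 regions, 4 of them from 1 cluster, these shares are descriptions.

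Of the 5 Gata2 peaks in the member loci, 4 overlapped another factor (80.0%, exact 95% interval 28.4 to 99.5), where 951 of 3217 Gata2 peaks in the genome did (29.6%). The companions were Cebpa, Cebpb and Fli1 at all 4 sites. Partners of the same complex or family overlapped at rates near those of the genome: 45 of 52 Cebpa peaks lay on a Cebpb peak (86.5%, against 82.4%), 14 of 15 Lyl1 peaks on a Tal1 peak (93.3%, against 91.4%), 13 of 14 Erg peaks on a Fli1 peak (92.9%, against 95.7%) and 24 of 28 Tal1 peaks on a Lmo2 peak (85.7%, against 76.3%). The genome value lay inside the exact 95% interval of each, for instance 67.3 to 96.0 for Tal1 on Lmo2. Gfi1b lay on Gfi1 in 8 of 9 cases (88.9%, 51.8 to 99.7, against 68.8%).

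The size of the locus set how much of this binding was counted. Inside the genes alone, 32.3% of combinations had a peak, against 24.5% over all protein-coding genes. With 10 kb either side the shares were 46.9% and 38.3%, and with 100 kb 80.8% and 68.4%. The member share was the higher at each size, although inside the genes the median number of factors was 1.5 for the members and 2 for all genes. These shares include Mitf, a gene of 214 kb with all 13 factors inside it. Genes of like length were compared at 50 kb only, so a higher share at the other sizes may come from gene length. Mitf, Mcpt8 and Hdc had 10 or more factors inside the gene. Il1rl1 went from 5 factors at 10 kb to 13 at 50 kb and Mcpt4 from 2 to 13, mainly by regions nearer to other genes. Of the factors that Il1rl1 gained, Meis1 also had a peak alone 35.9 kb upstream, for which Il1rl1 had the nearest start.

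**Figure D5:**
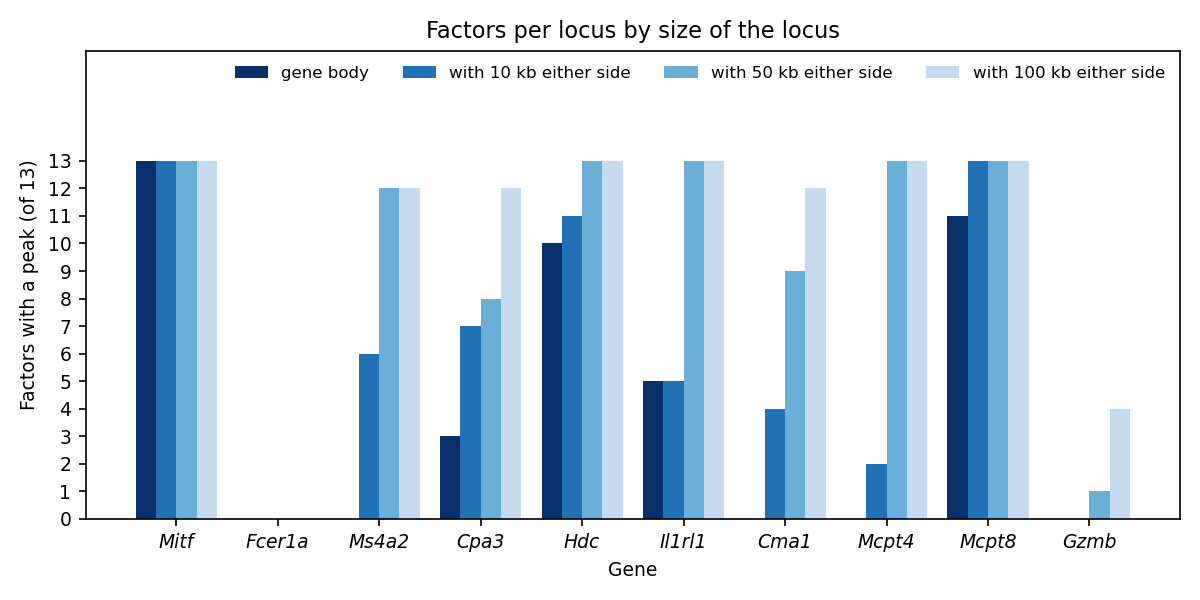
Number of factors, of 13, with a peak for each gene when the locus is the gene body alone or the gene with 10, 50 or 100 kb either side (bars from dark to light). Mitf stands at 13 throughout, Mcpt4 goes from 0 to 13, and Fcer1a has no bar.

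Another 40 genes of mast cells and basophils, were listed by role. A peak was present in 404 of 520 combinations (77.7%), against 73.1% for the members. All 13 factors were found at 9 of the 40 (22.5%), against 5.99% of protein-coding loci, and a dense region at 14 (35.0%), against 17.3%. A Gata2 peak was found at 11 (27.5%), near the 23.2% of protein-coding loci. The members stood at 5, 6 and 5 of 10 for these 3 counts, each of which counts both Mcpt4 and Mcpt8 although their loci share peaks. The 7 regulators had a median of 11 factors, the 14 receptors and signalling proteins 12, the 10 granule proteins 10 and the 9 enzymes, transporters and cytokines among the mediators 9. The mediator loci held 0 Gata2 peaks, which for 9 genes and 23.2% over all loci is not read further. The granule list is not separate from the members, since Mcpt1, Mcpt2, Mcpt9, Cma2 and Ctsg stand in the chymase cluster and share its peaks. Mcpt2 and Ctsg are among the 9 loci with all 13 factors, and the long annotated interval of Mcpt2 encloses Mcpt9. Other neighbours in the list also have overlapping loci and were counted separately. Among them are Stat5a and Stat5b, Csf2rb and Csf2rb2, Il4 and Il13, and the group of Tpsab1, Tpsb2 and Tpsg1.

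The 5 genes of that list with the most factors, ranked by peaks among those with 13, were Syk with 109 peaks, Cd200r3 with 85, Lyn with 81, Fcer1g with 78 and Gata2 with 69. Syk and Lyn are kinases that act just below the immunoglobulin E receptor, and Cd200r3 is a surface receptor of basophils and mast cells. Fcer1g encodes the gamma chain of the same receptor as Fcer1a and Ms4a2, and its locus was the opposite of that of Fcer1a. The loci of the 3 chains thus had 78, 49 and 0 peaks for gamma, beta and alpha. Of the 49 at Ms4a2, 15 had its start as the nearest, and for Fcer1g this was not counted. Mrgprb2, a mast cell receptor for basic peptides, was the 1 gene of the 40 with no peak.

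Genes of neighbouring lineages are given side by side. For 12 neutrophil granule genes a peak was present in 125 of 156 combinations (80.1%), with a median of 12 factors, and 5 of the 12 had a Gata2 peak. Ctsg is one of the 12 and shares its peaks with the Mcpt4 and Mcpt8 loci, and without it the numbers were 112 of 143 (78.3%), 12 and 4 of 11. Elane and Prtn3 are neighbours with overlapping loci, with 100 and 99 peaks, all 13 factors and 1 Gata2 peak each. The loci of S100a8 and S100a9 overlap as well, and these neighbours were counted separately. For 10 erythroid genes a peak was present in 90 of 130 combinations (69.2%), with a median of 9.5, and 1 of the 10 had a Gata2 peak. Lyl1 had a peak in 7 of the 12 neutrophil loci and 7 of the 10 erythroid ones, and Meis1 in 8 and 5. High counts were therefore not shown to belong to the mast cell and basophil genes.

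The loci most like each member in their counts over the 13 factors were found by Bray-Curtis similarity, where 1 means equal counts, among genes whose locus shares no peak with the member's. For Mitf they were Cd9 (0.945) and Ptprc (0.938), and for Cpa3 Snrpf (0.955) and Gbp2b (0.93). Hdc was nearest to Usf2 (0.928) and S100a16 (0.913), Il1rl1 to Ago2 (0.923) and Men1 (0.922), and Ms4a2 to Coro6 (0.923) and Svep1 (0.911). In the cluster, Cma1 was nearest to Lrrn4 and Tprgl (both 0.923), Mcpt4 to Gcnt4 (0.925) and Ankrd13a (0.921), and Mcpt8 to Mindy1 (0.923) and Ldah (0.919). All loci share the same libraries and list lengths, and how often other pairs of loci reach such values was not tested.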

How the data were processed

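ChIP-seq peak lists of 13 factors, 1 library each, were analysed. The values the authors deposited are positions (mm10, GRCm38, per the submitters' processing notes): 3 columns per peak, each peak 400 bp wide, with no score, so the depth of a library and the strength of a peak are unknown. The notes also name Bowtie2, MACS2 and bedtools, with versions and settings not given in the sources used here. Lines on the mitochondrial genome (3) were left out. Each peak was assigned by its midpoint, and gene intervals and promoters came from RefSeq (GRCm38.p6). Python 3.11.15 with numpy 2.4.6 and scipy 1.17.1 was used. The counting code was tested on simulated data. No replicates exist, so no test was made; shares have exact (Clopper-Pearson) 95% intervals. The text names all 10 genes, every region with 4 or more factors, every Gata2 peak, of the other mast cell list the 5 genes with most factors and those with no peak, and the 2 most similar genes. Members and lists were chosen with earlier results of these data known. The IgG library was not used. Alternatives changed the window, the merging overlap, the lines used and the lists.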

Additional observations from a re-analysis of the deposited data

How the results depend on the processing

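Most totals depend on the window, with exceptions: Mitf had 13 and Fcer1a 0 factors at every size tried, and the chymase cluster had 4 regions of 10 or more factors also with 10 kb either side. With 10 kb either side, the median number of factors fell from 12.5 to 5.5, the peaks from 365 to 175, the combinations from 73.1% to 46.9%, the regions from 126 to 67 and the regions of 10 or more factors from 10 to 4. Inside the genes alone these were 1.5, 123, 32.3%, 49 and 3. With 100 kb the combinations were 80.8% and the regions 191. Counting only where a member has the nearest protein-coding start, an alternative chosen after seeing the data, gave a median of 7 factors, 209 peaks, 53.1% of combinations, 82 regions and 4 regions of 10 or more factors. The share over all genes was not counted in this way, so the 53.1% has no background and cannot be set beside the 57.6% of the 50 kb loci. The first 50% of each file's lines, whose order is not by position and is not explained, gave 225 peaks, 77 regions, 6 with 10 or more factors, and in the chymase cluster 53 peaks and 2 such regions in place of 89 and 4. Without the Spi1 list 6 regions of 10 or more factors were left, since fewer lists remain to be counted. Assigning peaks by any overlap left 20 of 20 single-gene counts within 1.5 times. With the 4 neighbours counted as 1 locus the combinations were 79.1%. Joining also takes in Cma1 with 9 factors and Gzmb with 1, in a locus that has all 13. Mcpt4 and Mcpt8 each had all 13, so counting only that pair as 1 locus would lower the share. The rise comes from taking in Cma1 and Gzmb, and no share over genes joined in this way was counted. Motifs in the central part of peaks were not run, because peak sequences were not used here. No paired analysis was possible because each factor has 1 library and no test was made.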
